A study of Homo sapiens with 6 samples.

Results

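The 105 genes described here encode the mitochondrial ribosome and the proteins that copy, transcribe, stabilise and translate the mitochondrial genome, in LN229 cells, an established human glioblastoma line. They were taken by name from a table of 33890 genes, of which 17031 are protein-coding: 78 protein-coding genes whose symbol begins with MRPL or MRPS and a number, and 27 named factors (TFAM, TFB1M, TFB2M, POLRMT, TEFM, MTERF1 to MTERF4, POLG, POLG2, TWNK, SSBP1, TOP1MT, LRPPRC, SLIRP, PNPT1, SUPV3L1, FASTKD1 to FASTKD5, TUFM, TSFM, GFM1 and GFM2). Membership was set by name and not by a measured value, though earlier results of these data were known when the list was made. Poly(A)-selected RNA was sequenced in 3 libraries of LN229 cells kept in 800 µM ursodeoxycholic acid (UDCA), a bile acid in clinical use for cholestatic liver disease, for 48 h, and in 3 control libraries of LN229 cells left untreated. All came from this 1 cell line, grown in serum-containing medium, and the labels name no vehicle for the controls. Nothing in the labels ties the 3 libraries of a group to separate cultures, so the p-values below measure only the spread between these libraries, which may be technical.

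Human mitochondrial DNA carries genes for proteins of the respiratory chain and ATP synthase and for its own ribosomal and transfer RNAs, while every protein needed to express them is encoded in the nucleus and imported. Transcription needs the polymerase POLRMT with the factors TFAM and TFB2M, and the long transcripts are cut, modified and bound by stabilising proteins before translation. The mitochondrial ribosome has a small subunit that reads the mRNA and a large subunit that joins amino acids. Part of its proteins have bacterial counterparts and the rest are found in mitochondria only.

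Promoters are shown for 4 genes on which the results turn, because they moved in opposite directions with UDCA: POLRMT and SUPV3L1 were higher, and TFAM and MTERF1 were lower. Each line gives the 250 bases before the gene start from RefSeq (GRCh38.p14), 5′ to 3′ on the gene's own strand, at chr19:633538-633787 (minus strand) for POLRMT, chr10:69179984-69180233 (plus strand) for SUPV3L1, chr10:58385160-58385409 (plus strand) for TFAM and chr7:91880703-91880952 (minus strand) for MTERF1. Capitals mark exact matches, on either strand, to the cores bound by factors known for nuclear genes of mitochondrial proteins: GCATGCG for NRF1, CCGGAAG for ETS factors such as GABPA, and AGATGGC for YY1.
POLRMT: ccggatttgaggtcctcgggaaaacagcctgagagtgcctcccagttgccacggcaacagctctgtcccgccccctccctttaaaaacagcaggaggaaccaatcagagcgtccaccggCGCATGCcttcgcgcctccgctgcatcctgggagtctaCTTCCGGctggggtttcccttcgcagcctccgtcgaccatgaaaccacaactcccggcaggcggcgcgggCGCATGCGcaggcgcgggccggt
SUPV3L1: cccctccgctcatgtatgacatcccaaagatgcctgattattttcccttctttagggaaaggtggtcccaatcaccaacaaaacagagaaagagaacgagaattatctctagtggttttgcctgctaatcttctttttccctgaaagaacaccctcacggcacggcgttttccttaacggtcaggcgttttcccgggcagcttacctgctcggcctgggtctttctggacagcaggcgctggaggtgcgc
TFAM: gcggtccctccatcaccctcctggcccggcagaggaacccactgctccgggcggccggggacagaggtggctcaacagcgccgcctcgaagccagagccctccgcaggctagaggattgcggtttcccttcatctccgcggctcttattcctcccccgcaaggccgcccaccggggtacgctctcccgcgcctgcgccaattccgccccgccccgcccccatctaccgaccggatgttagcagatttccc
MTERF1: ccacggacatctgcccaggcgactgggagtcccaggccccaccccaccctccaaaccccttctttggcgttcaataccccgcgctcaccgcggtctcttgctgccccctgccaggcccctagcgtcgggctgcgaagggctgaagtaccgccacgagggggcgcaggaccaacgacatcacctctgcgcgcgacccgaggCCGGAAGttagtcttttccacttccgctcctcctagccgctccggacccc
The POLRMT window held an NRF1 core from 131 to 125 bases before the start, a pair on opposite strands that overlap between 23 and 16 bases before it, and an ETS core from 93 to 87 bases before it. The MTERF1 window held 1 ETS core, from 50 to 44 bases before the start. No exact match lay in the SUPV3L1 and TFAM windows, which says only that these letters are not in these windows. The RefSeq starts differ from those of GENCODE 29, where TFAM starts at chr10:58385022. By GENCODE 29 the whole TFAM window thus lies inside the gene, and the other windows overlap their genes in part.

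Of the 105 genes, 92 had a window in the RefSeq table, which runs from 250 bases before to 50 bases after the start. The NRF1 core lay in 10 of those windows (10.9%), against 6.58% of the 9462 tested genes with a window and 4.13% of all 27305 windows. The ETS core lay in 41 (44.6%), against 20.1% of tested genes and 10.7% of all windows, and the YY1 core in 23 (25%), against 7.66% and 5.61%. A match is a description of the letters and not a binding site. Of the 9 tested genes of the machinery with an NRF1 core, 5 were higher and 1 was lower with UDCA (median log2 change 0.21). Among the 81 without it, 32 were higher and 32 lower (median -0.0033). Over all tested genes 45.1% were higher and 35.7% lower (median 0.10). Whether the core has a part in these changes was not tested. With and without the ETS core the medians were -0.04 and 0.03, and with and without the YY1 core -0.03 and 0.02.

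The labelled cell type was checked against markers. GFAP, the intermediate filament of astrocytes, was under 1 FPKM in every library, while VIM, CD44, NES and S100B were all present and lower with UDCA. SOX2, a glioma stem-cell factor, had 2.59, 2.66 and 2.48 FPKM with UDCA, against 75.8, 76.4 and 78.7 FPKM in control. OLIG2 had 4.78, 4.99 and 4.67 FPKM with UDCA, against 4.36, 4.25 and 5.18 FPKM in control, and the groups overlapped. The 4 blood and 4 endothelial markers in the table were each under 1 FPKM in all libraries. Epithelial markers summed to 19.7 to 21.6 FPKM with UDCA and 19.0 to 20.1 FPKM in control, from KRT8 and KRT18. Neuronal markers summed to 17.7 to 20.4 FPKM with UDCA and 10.6 to 11.6 FPKM in control; SYT1 was higher with UDCA (mean 14.6 FPKM, against 4.93 FPKM in control) and SNAP25 lower (mean 4.28 FPKM, against 6.19 FPKM in control). EPCAM, CDH1, RBFOX3 and STMN2 stayed under 1 FPKM in every library, and what part any of these levels has in the results was not tested. Reads recovered from the table numbered 15988951 to 17045218 in UDCA libraries and 16639832 to 17743022 in control libraries. The share of reads from mitochondrially encoded genes was 0.0263% to 0.0271% with UDCA and 3.13% to 3.16% in control.

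With UDCA, the machinery changed gene by gene and in both directions. Of the 105 genes, 102 reached 1 FPKM in at least 3 libraries and were tested with limma-trend on log2(FPKM + 1). With Benjamini-Hochberg adjustment over all 14380 genes tested, a gene was called at an adjusted p under 0.05: 43 were higher (42.2%), 37 were lower (36.3%) and 22 were not called. Over all tested genes 80.8% were called, 45.1% higher and 35.7% lower, so both shares lie near the background. The groups did not overlap in 83 of the 102 (81.4%), against 82.8% of all tested genes. The median log2 change of the 102 was 0.02, whose sign turns under 3 other scalings of the libraries, beside 0.10 over all tested genes. Among the called genes of the machinery, the groups overlapped in TFB2M and MRPL50 only. MRPL38 and MRPL46, both called higher, entered the test through their UDCA libraries alone, as each control library was under 1 FPKM. Log2 changes are UDCA minus control with their SE, folds are ratios of mean FPKM, and gene positions are those of GENCODE 29 on GRCh38. These are bulk libraries, in which fewer cells of a type and less RNA per cell cannot be told apart.

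Most changes were under 2-fold. On the log2(FPKM + 1) scale, only 4 of the 102 (3.92%) were called with a change of at least 1 in size, against 24.3% of all tested genes. The 4 were SUPV3L1 and MRPL2 among those higher, and MRPS6 and MTERF1 among those lower. By ratio of mean FPKM, MRPS5 and MRPL46 were also over 2-fold higher, and MRPL12 and FASTKD3 over 2-fold lower. The median size of a log2 change, whatever its sign, was 0.35 in the machinery and 0.53 over all tested genes. Changes of the machinery ran from -1.07 (MRPS6) to 1.51 (SUPV3L1), with an interquartile range from -0.29 to 0.43.

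**Figure D1:**
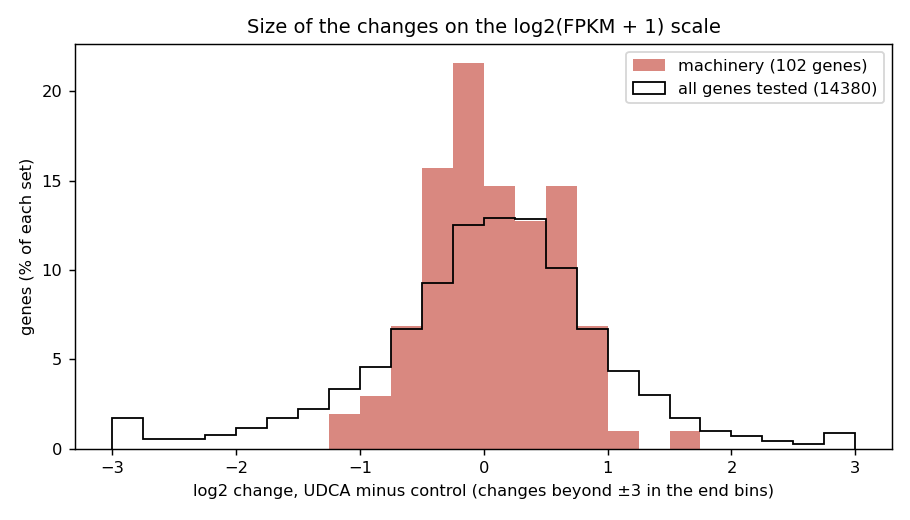
Log2 changes (UDCA minus control) of the 102 tested genes of the machinery (filled) and of all 14380 tested genes (line), as a percentage of each set; changes beyond 3 in size are gathered in the end bins. The machinery lies between -1.07 and 1.51, while all genes reach much further on both sides.

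Another 3 genes, all of the small subunit, never reached 1 FPKM and were not tested. MRPS18C had 0.540, 0.458 and 0.472 FPKM in the UDCA libraries, against 0.543, 0.597 and 0.649 FPKM in the control libraries, and MRPS24 had 0.814, 0.449 and 0.541 FPKM with UDCA, against 0.391, 0.334 and 0.259 FPKM in control. MRPS28 had 0.207, 0.420 and 0.454 FPKM with UDCA, against 0.661, 0.736 and 0.558 FPKM in control. The UDCA libraries lay below the control libraries in MRPS18C and MRPS28 and above them in MRPS24, but these levels rest on only 33 to 150 reads per group and gene. Of their exon bases, 40.2% (MRPS18C), 23.2% (MRPS24) and 35.8% (MRPS28) are shared with other genes. How reads in shared bases were counted is not given, so a low value here need not mean low expression.

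By level per length, the genes of the machinery spanned a wide range. In the UDCA libraries the highest means were those of MRPS26 (94.7 ± 6.42 FPKM), TUFM (68.8 ± 1.70 FPKM) and MRPS34 (61.9 ± 1.66 FPKM; SD, n = 3). In the control libraries they were TUFM (84.3 ± 0.28 FPKM), MRPL51 (67.7 ± 2.74 FPKM) and MRPS34 (65.5 ± 1.94 FPKM; SD, n = 3). MRPL51 and MRPS34 lay within their spread of each other in control.

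By MRP symbol, the large subunit had as many genes higher as lower. All 51 of its genes with such a symbol were tested: 20 were higher and 20 lower with UDCA (39.2% each), and 11 were not called. Over all tested genes the shares were 45.1% and 35.7%. The median log2 change of the large subunit was -0.0033, beside 0.10 over all tested genes. Summed over its genes, the large subunit came to 931, 929 and 936 FPKM in the UDCA libraries, against 877, 907 and 876 FPKM in the control libraries. That is a ratio of 1.05, which becomes 0.99 when libraries are scaled by the median ratio of genes.

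Among large-subunit proteins with a bacterial counterpart, 11 of 30 were higher (36.7%) and 13 lower (43.3%), beside 45.1% and 35.7% over all tested genes. The greatest rise was that of MRPL2 (chr6:43054029-43059806), a core protein of the peptidyl transferase region. It shares 14.7% of its exon bases with KLC4, which averaged 2.68 FPKM with UDCA and 2.02 FPKM in control. The part of those bases in its rise was not tested. MRPL2 had 13.5, 15 and 14.3 FPKM in the UDCA libraries, against 6.18, 6.94 and 6.61 FPKM in the control libraries, and every UDCA library lay above every control library (2.17-fold higher, log2 change 1.01 ± 0.052, adjusted p = 2.13e-06). MRPL32, which the m-AAA protease matures in mice and yeast, had 24.5, 24.9 and 23.5 FPKM with UDCA, against 13.4, 14.3 and 13.2 FPKM in control (1.78-fold higher, log2 change 0.79 ± 0.038, adjusted p = 1.42e-06). MRPL10, which anchors the stalk where translation factors bind, had 35.9, 36.3 and 39 FPKM with UDCA, against 25.2, 24.8 and 23.8 FPKM in control (1.51-fold higher, log2 change 0.57 ± 0.040, adjusted p = 9.62e-06).

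MRPL12, the other stalk protein, went the opposite way. MRPL12 had 2.25, 2.23 and 1.72 FPKM in the UDCA libraries, against 3.74, 4.35 and 4.50 FPKM in the control libraries (2.03-fold lower, log2 change -0.76 ± 0.094, adjusted p = 2.21e-04), but 68.2% of its exon bases are shared with another annotated gene and it rests on 106 reads over the UDCA libraries and 223 reads over the control libraries. MRPL28 (chr16:366969-371289) had 5.74, 5.44 and 5.69 FPKM with UDCA, against 11.1, 10.3 and 9.50 FPKM in control (1.83-fold lower, log2 change -0.77 ± 0.057, adjusted p = 1.42e-05). MRPL35 had 9.57, 10.7 and 9.83 FPKM with UDCA, against 15.5, 16.2 and 16.8 FPKM in control (1.61-fold lower, log2 change -0.64 ± 0.049, adjusted p = 1.66e-05). In each of the 3 genes every UDCA library was below every control library.

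Large-subunit proteins with an MRP symbol that are found in mitochondria only were likewise split, with 9 of 21 higher (42.9%) and 7 lower (33.3%). The shares over all tested genes were 45.1% and 35.7%. MRPS30, a large-subunit protein despite its symbol, had 13.2, 13 and 13.1 FPKM in the UDCA libraries, against 7.46, 7.26 and 6.87 FPKM in the control libraries (1.82-fold higher, log2 change 0.78 ± 0.037, adjusted p = 1.34e-06). MRPL45, which lies at the exit of the peptide tunnel where the ribosome meets the inner membrane, had 41.9, 38.1 and 40.2 FPKM with UDCA, against 21, 25.6 and 22.7 FPKM in control (1.73-fold higher, log2 change 0.77 ± 0.072, adjusted p = 4.77e-05). MRPL39 had 35.5, 36.6 and 33.9 FPKM with UDCA, against 21.5, 20.6 and 20.5 FPKM in control (1.69-fold higher, log2 change 0.73 ± 0.035, adjusted p = 1.44e-06). All 3 had their lowest UDCA library well above their highest control library.

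The falls of this class were led by MRPL40, MRPL49 and MRPL44. MRPL40 (chr22:19431902-19436075) had 14.3, 12.8 and 15.3 FPKM in the UDCA libraries, against 22.3, 23.6 and 22.4 FPKM in the control libraries (1.61-fold lower, log2 change -0.65 ± 0.063, adjusted p = 5.56e-05). MRPL49 had 18.4, 19.8 and 18.3 FPKM with UDCA, against 27.3, 29 and 28.3 FPKM in control (1.5-fold lower, log2 change -0.56 ± 0.039, adjusted p = 1.02e-05). MRPL44, which carries a ribonuclease III-like fold, had 13.3, 12.8 and 12.9 FPKM with UDCA, against 18.1, 18.2 and 17.6 FPKM in control (1.38-fold lower, log2 change -0.44 ± 0.029, adjusted p = 7.18e-06). The groups did not overlap in any of these.

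Genes of the large subunit also lay at the centre of the distribution. MRPL47 had 25.8, 23.3 and 24.3 FPKM in the UDCA libraries, against 25, 24.4 and 24.1 FPKM in the control libraries, MRPL57 had 16.5, 14.9 and 16.6 FPKM with UDCA, against 15.1, 16.4 and 16.8 FPKM in control, and MRPL42 had 3.25, 3.42 and 2.94 FPKM with UDCA, against 3.30, 3.18 and 3.26 FPKM in control. These are the 3 MRP genes closest to no change, their groups overlapped, and 13 tested MRP genes had a log2 change under 0.1 in size. MRPL51, second in level in control, had 52, 51.7 and 48.6 FPKM in the UDCA libraries, against 69.9, 68.5 and 64.6 FPKM in the control libraries (1.33-fold lower). It shares 31.3% of its exon bases with NCAPD2, which averaged 5.80 FPKM with UDCA and 72.8 FPKM in control, and what part those shared bases have in its fall was not tested.

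Of the 23 tested small-subunit genes with an MRP symbol, 12 were higher (52.2%) and 7 were lower (30.4%). The shares over all tested genes were 45.1% and 35.7% (median 0.10). Small-subunit proteins without such a symbol, such as DAP3, are left out here and in the sums. The median gene of the small subunit changed by 0.12 on the log2 scale. Its genes summed to 533, 532 and 549 FPKM in the UDCA libraries, against 452, 460 and 447 FPKM in the control libraries. The ratio was 1.19, and 1.11 after scaling by the median ratio of genes. The large subunit over the small subunit, a ratio of summed FPKM that a scaling factor per library does not change, was 1.75, 1.75 and 1.70 with UDCA, against 1.94, 1.97 and 1.96 in control. The 2 groups did not overlap in this ratio.

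**Figure D2:**
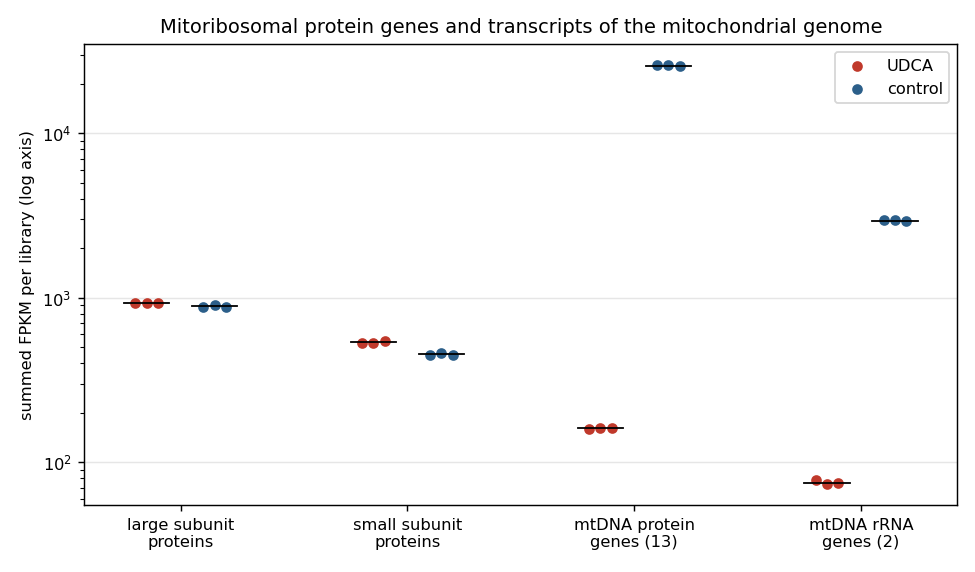
Summed FPKM per library (log axis) of the large-subunit and small-subunit proteins with an MRP symbol, the 13 protein genes and the 2 rRNA genes of mitochondrial DNA. Each point is a library, UDCA left and control right, and the bar is the mean of 3. The ribosomal protein sums lie close together in both groups, while the mitochondrially encoded sums are 161 FPKM with UDCA against 25849 FPKM in control for the protein genes.

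The largest rise in the small subunit was that of MRPS5. MRPS5 (chr2:95087207-95149434), of the mRNA entry region, had 20.7, 20.3 and 20.6 FPKM with UDCA, against 10.2, 10.3 and 9.81 FPKM in control (2.03-fold higher, log2 change 0.96 ± 0.029, adjusted p = 1.57e-07). MRPS15 had 37, 36.1 and 37.4 FPKM with UDCA, against 21.3, 21.2 and 19.8 FPKM in control (1.78-fold higher, log2 change 0.80 ± 0.034, adjusted p = 8.22e-07), and MRPS10 had 35.6, 35.6 and 34.5 FPKM in the UDCA libraries, against 21.2, 20 and 21.2 FPKM in the control libraries (1.69-fold higher, log2 change 0.73 ± 0.031, adjusted p = 8.22e-07). MRPS5 shares 8.19% of its exon bases with ZNF514, which averaged 12.8 FPKM with UDCA and 5.23 FPKM in control. What part those bases have in its rise was not tested. Of the 13 tested small-subunit proteins with a bacterial counterpart, 5 were higher and 5 lower (38.5% each), beside 45.1% and 35.7% over all tested genes.

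The opposite direction was led by MRPS6 (chr21:34073224-34143034), which had 9.53, 9.31 and 7.61 FPKM with UDCA, against 20.3, 18.9 and 19.6 FPKM in control (2.22-fold lower, log2 change -1.07 ± 0.079, adjusted p = 1.36e-05). The highest UDCA library (9.53 FPKM) lay far under the lowest control library (18.9 FPKM). MRPS6 shares 9.61% of its exon bases with other genes, among them SLC5A3, which averaged 10.3 FPKM with UDCA and 66.4 FPKM in control, and what part the shared bases have in its fall was not tested. MRPS17 had 1.48, 1.74 and 1.34 FPKM with UDCA, against 3.34, 3.23 and 2.11 FPKM in control (1.91-fold lower, log2 change -0.62 ± 0.140, adjusted p = 0.00515). It shares 27% of its exon bases with NIPSNAP2, which averaged 9.10 FPKM with UDCA and 19.4 FPKM in control, and that part in its fall was not tested either. MRPS7, an rRNA-binding protein of the head, had 12.2, 11.9 and 12.8 FPKM in the UDCA libraries, against 15.6, 15.5 and 16.3 FPKM in the control libraries (1.28-fold lower, log2 change -0.33 ± 0.038, adjusted p = 1.42e-04).

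Of the 10 small-subunit proteins with an MRP symbol and found in mitochondria only, 7 were higher (70%) and 2 lower (20%). The shares over all tested genes were 45.1% and 35.7%. Mitoribosomal proteins without an MRP symbol are not in this count. Of 5 such proteins, given below, 4 were lower and 1 was higher. The median log2 change of the 10 was 0.43, beside 0.10 over all tested genes. MRPS35 had 38.6, 37.5 and 37.3 FPKM with UDCA, against 21.7, 23.3 and 20.8 FPKM in control (1.72-fold higher, log2 change 0.76 ± 0.041, adjusted p = 2.71e-06). MRPS22 had 11.4, 12.3 and 11.5 FPKM with UDCA, against 6.58, 6.93 and 6.83 FPKM in control (1.73-fold higher, log2 change 0.71 ± 0.041, adjusted p = 3.75e-06), and MRPS31 had 11.6, 9.47 and 10.7 FPKM in the UDCA libraries, against 6.20, 6.10 and 6.82 FPKM in the control libraries (1.66-fold higher, log2 change 0.65 ± 0.075, adjusted p = 1.56e-04). MRPS27, an RNA-binding protein with pentatricopeptide repeats, had 8.29, 7.42 and 7.46 FPKM with UDCA, against 10.5, 10.1 and 10.3 FPKM in control (1.33-fold lower, log2 change -0.37 ± 0.048, adjusted p = 2.65e-04). MRPS34 had 60.1, 62.3 and 63.4 FPKM with UDCA, against 64.6, 67.8 and 64.2 FPKM in control (1.06-fold lower, log2 change -0.08 ± 0.030, adjusted p = 0.0441), a call lost in 8 of 13 alternatives. Among them are quantile normalization, which turns the log2 change to 0.01, and leaving out UDCA replicate 1 or 2 or control replicate 1 or 2. MRPS22 shares 7.80% of its exon bases with other genes, among them COPB2, which averaged 46.7 FPKM with UDCA and 29.8 FPKM in control. Their part in its rise was not tested.

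The 3 paralogs of bacterial S18 differed in level. MRPS18B had 30.01, 28.9 and 31.7 FPKM in the UDCA libraries, against 30.02, 32.2 and 31 FPKM in the control libraries, and was not called, but was called lower under median-ratio scaling. MRPS18A, a large-subunit protein, had 12.8, 12.3 and 12.8 FPKM with UDCA, against 13.8, 14 and 15.1 FPKM in control (1.13-fold lower, log2 change -0.16 ± 0.041, adjusted p = 0.00797), which limma's voom on recovered reads no longer calls (adjusted p = 0.052, the highest over 13 alternatives), and MRPS18C was among the untested genes. MRPS18A shares 47.0% of its exon bases with RSPH9, which averaged 0.121 FPKM with UDCA and 0.294 FPKM in control. MRPS36 carries an MRP symbol but its protein belongs to the 2-oxoglutarate dehydrogenase complex. It had 5.72, 6.79 and 6.85 FPKM with UDCA, against 7.31, 6.91 and 7.48 FPKM in control, and was not called, though it was called lower under the 3 other scalings of the libraries.

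**Figure D3:**
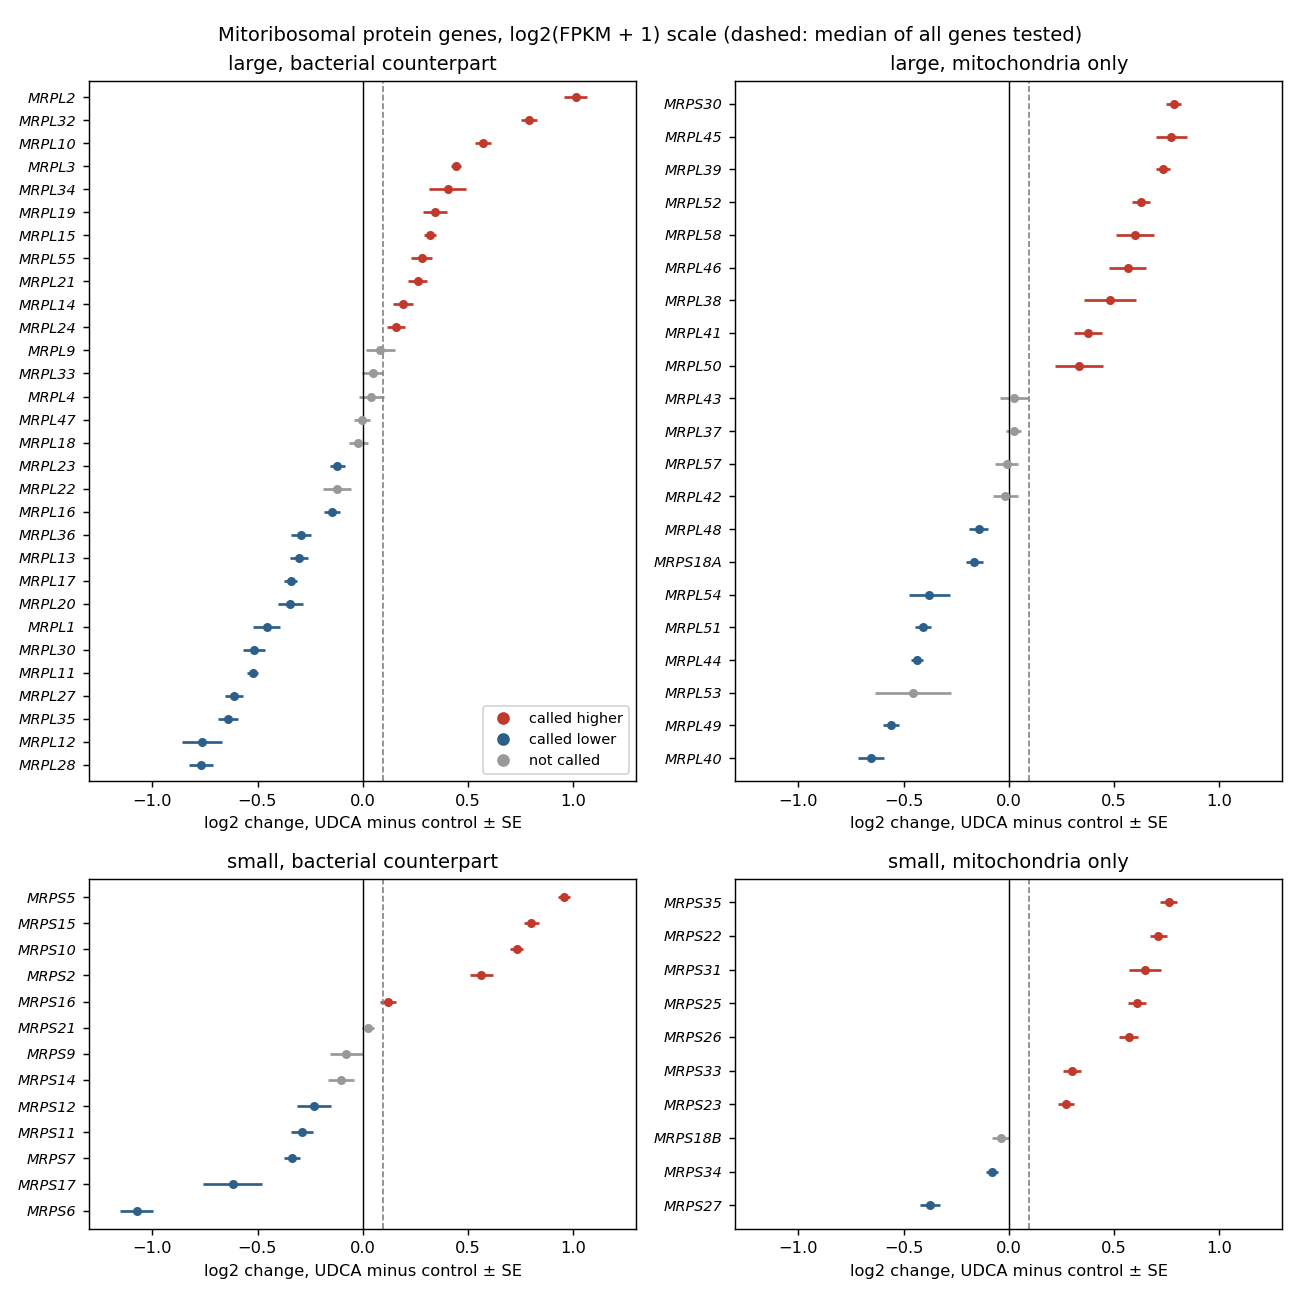
Log2 change (UDCA minus control, with SE) of the tested MRP genes, ordered by size within each subunit class. Rises and falls occur in all classes, from -1.07 for MRPS6 to 1.01 for MRPL2.

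In transcription, the polymerase and its DNA-packaging factor moved in opposite directions. POLRMT (chr19:617224-633604), the mitochondrial RNA polymerase, had 21.9, 20.8 and 21.8 FPKM in the UDCA libraries, against 13.4, 13 and 13.1 FPKM in the control libraries (1.64-fold higher, log2 change 0.67 ± 0.030, adjusted p = 1.06e-06). TFAM (chr10:58385022-58399221), which bends promoter DNA and coats the mitochondrial genome, had 8.42, 8.65 and 7.92 FPKM with UDCA, against 12.8, 12.1 and 11.6 FPKM in control (1.46-fold lower, log2 change -0.50 ± 0.047, adjusted p = 5.49e-05). The groups overlapped in neither gene. With opposite directions this fixed the permutation p of their ratio beforehand, so that p adds nothing to the 2 calls. The ratio of POLRMT to TFAM in FPKM was 2.60, 2.40 and 2.75 with UDCA, against 1.05, 1.08 and 1.12 in control (exact 2-sided permutation test, p = 0.1, the smallest that 3 against 3 allow, and 0.12 adjusted over 6 such ratios).

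TFB2M, the factor that opens the promoter, had 25.9, 23.4 and 25.6 FPKM with UDCA, against 23.9, 20.3 and 20.1 FPKM in control (1.16-fold higher, log2 change 0.21 ± 0.072, adjusted p = 0.0291). Its groups overlapped, and the call is lost in 7 of 13 alternatives: median-ratio scaling, totals without mitochondrially encoded genes, no filter on low values, and leaving out UDCA replicate 1 or 3 or control replicate 2 or 3. TEFM, the elongation factor, had 2.21, 2.18 and 1.68 FPKM in the UDCA libraries, against 1.71, 1.89 and 1.68 FPKM in the control libraries, and was not called (log2 change 0.13 ± 0.089, adjusted p = 0.221), but was called higher without UDCA replicate 3. MTERF2 had 3.07, 3.15 and 3.61 FPKM with UDCA, against 2.69, 2.52 and 3.03 FPKM in control, and was not called either (log2 change 0.19 ± 0.076, adjusted p = 0.0519), but was called higher by voom on recovered reads, with the replicate block and without control replicate 3.

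MTERF1 (chr7:91692008-91880720), which binds mitochondrial DNA at the end of the rRNA unit and stops transcription there, was the largest fall among the 27 factors. It had 3.93, 3.76 and 3.90 FPKM with UDCA, against 8.95, 8.37 and 8.90 FPKM in control (2.26-fold lower, log2 change -1.002 ± 0.042, adjusted p = 7.41e-07). The highest UDCA library (3.93 FPKM) was less than the lowest control library (8.37 FPKM).

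Another 3 genes act on rRNA and ribosome assembly. TFB1M, which methylates the small rRNA, had 3.18, 3.13 and 3.19 FPKM in the UDCA libraries, against 3.32, 3.34 and 3.65 FPKM in the control libraries, and was not called (log2 change -0.09 ± 0.051, adjusted p = 0.145), but was called lower under median-ratio scaling. MTERF3 had 12.1, 10.7 and 11.6 FPKM with UDCA, against 13.6, 14.6 and 12.2 FPKM in control (1.17-fold lower, log2 change -0.21 ± 0.070, adjusted p = 0.026), a call lost with no filter on low values and on leaving out UDCA replicate 2 or 3 or control replicate 1 or 2. MTERF4, which brings the rRNA methyltransferase NSUN4 to the large subunit, had 2.30, 2.42 and 2.49 FPKM with UDCA, against 2.88, 2.88 and 2.89 FPKM in control (1.20-fold lower, log2 change -0.19 ± 0.050, adjusted p = 0.0105). It shares 51.0% of its exon bases with SNED1, which was also lower (1.22 FPKM with UDCA and 2.26 FPKM in control).

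Of the 5 replication genes, 4 were called higher and 1 lower, beside 45.1% higher and 35.7% lower over all tested genes. The catalytic subunit of the replicative polymerase was the exception: POLG (chr15:89305198-89334861) had 12.3, 11.8 and 13.1 FPKM in the UDCA libraries, against 14.8, 15.2 and 16.1 FPKM in the control libraries (1.24-fold lower, log2 change -0.29 ± 0.046, adjusted p = 8.93e-04). FANCI, with which POLG shares 7.66% of its exon bases, averaged 1.70 FPKM with UDCA and 19.7 FPKM in control, and its part in that fall was not tested. POLG2 (chr17:64477785-64497036), the subunit that keeps POLG on the template, had 19.5, 19.3 and 19.1 FPKM with UDCA, against 10.8, 10.7 and 9.96 FPKM in control (1.84-fold higher, log2 change 0.82 ± 0.036, adjusted p = 9.19e-07). TWNK (chr10:100987367-100994401), the helicase, had 19, 19 and 18.9 FPKM with UDCA, against 11.7, 12 and 11.6 FPKM in control (1.61-fold higher, log2 change 0.64 ± 0.026, adjusted p = 6.21e-07).

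The ratio of POLG2 to POLG was 1.59, 1.63 and 1.46 with UDCA, against 0.730, 0.703 and 0.620 in control, and that of TWNK to POLG was 1.55, 1.61 and 1.45 with UDCA, against 0.795, 0.790 and 0.725 in control. Neither ratio overlapped between the groups (exact permutation p = 0.1 each, 0.12 adjusted). POLG2 and TWNK were higher and POLG lower in every UDCA library than in any control library. This fixed the p of both ratios beforehand, so it adds nothing to the calls of the single genes. SSBP1, which coats single-stranded mitochondrial DNA, had 23.2, 23.3 and 24.3 FPKM in the UDCA libraries, against 19.4, 20.5 and 19.3 FPKM in the control libraries (1.20-fold higher, log2 change 0.25 ± 0.033, adjusted p = 3.30e-04). TOP1MT, the mitochondrial topoisomerase, had 5.68, 5.67 and 5.59 FPKM with UDCA, against 4.79, 4.58 and 4.45 FPKM in control (1.23-fold higher, log2 change 0.25 ± 0.041, adjusted p = 0.00112). In both, every UDCA library lay above every control library.

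The RNA-degrading pair rose, while of the RNA-stabilising pair 1 gene was not called and the other was called lower in some settings only. SUPV3L1 (chr10:69180232-69209099), the helicase that unwinds RNA for decay, had 18.7, 19 and 19.7 FPKM with UDCA, against 5.82, 5.81 and 6.57 FPKM in control. This was the largest change of the machinery (3.15-fold higher, log2 change 1.51 ± 0.050, adjusted p = 2.32e-07). PNPT1 (chr2:55634265-55693910), the ribonuclease with which it forms the degradosome, had 19.4, 18.2 and 18.5 FPKM in the UDCA libraries, against 11.2, 11.8 and 11.9 FPKM in the control libraries (1.61-fold higher, log2 change 0.64 ± 0.037, adjusted p = 3.49e-06). The ratio of SUPV3L1 to PNPT1 was 0.960, 1.05 and 1.07 with UDCA, against 0.519, 0.494 and 0.552 in control (exact permutation p = 0.1, 0.12 adjusted).

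LRPPRC, which protects mitochondrial mRNAs and promotes their polyadenylation, had 15.6, 15.1 and 16.1 FPKM with UDCA, against 15.9, 16.7 and 16.4 FPKM in control, and was not called (log2 change -0.06 ± 0.034, adjusted p = 0.122), though it was called lower under the 3 other scalings of the libraries. SLIRP, its partner, had 8.22, 8.25 and 8.20 FPKM with UDCA, against 9.89, 10.1 and 8.38 FPKM in control (1.15-fold lower, log2 change -0.17 ± 0.066, adjusted p = 0.0425). Control replicate 3 lies close to the UDCA libraries, and the call is lost with no filter on low values and on leaving out any UDCA library or control replicate 1 or 2. The ratio of SLIRP to LRPPRC was 0.528, 0.548 and 0.510 with UDCA, against 0.622, 0.603 and 0.512 in control, with overlapping groups (exact permutation p = 0.3, also after adjustment).

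**Figure D4:**
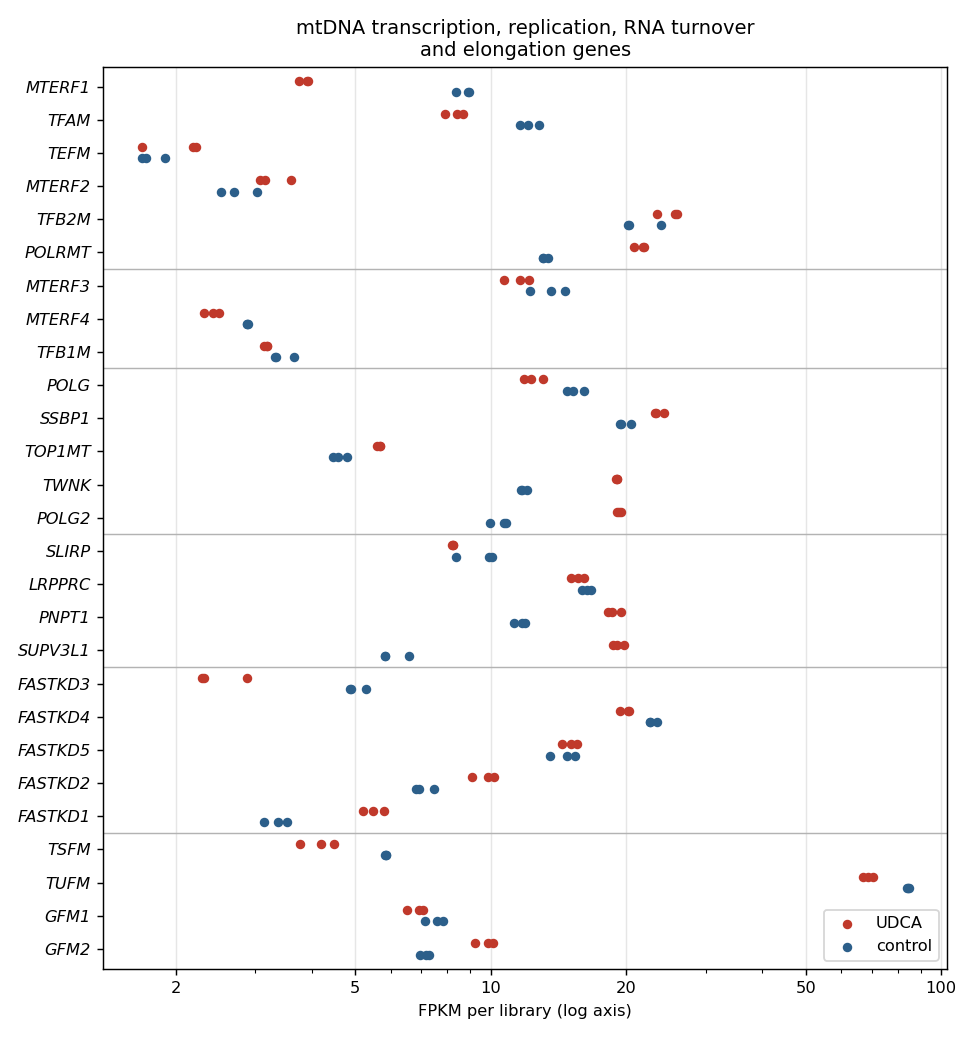
FPKM (log axis) of the 27 genes outside the MRP symbols, grouped by role, with each library as a point, UDCA and control side by side. SUPV3L1, POLG2, TWNK and POLRMT are higher and MTERF1, FASTKD3 and TFAM lower in every UDCA library than in any control library.

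The FASTK family, RNA-binding proteins of the mitochondrial granules, split as well. FASTKD1 had 5.80, 5.21 and 5.47 FPKM in the UDCA libraries, against 3.36, 3.53 and 3.13 FPKM in the control libraries (1.65-fold higher, log2 change 0.58 ± 0.057, adjusted p = 6.53e-05), and FASTKD2, needed for large-subunit assembly, had 9.07, 9.84 and 10.1 FPKM with UDCA, against 6.94, 6.82 and 7.49 FPKM in control (1.37-fold higher, log2 change 0.40 ± 0.053, adjusted p = 3.18e-04). FASTKD3 had 2.87, 2.28 and 2.31 FPKM with UDCA, against 5.28, 4.88 and 4.87 FPKM in control (2.02-fold lower, log2 change -0.79 ± 0.077, adjusted p = 6.22e-05). The lowest control library of FASTKD3 still exceeded its highest UDCA library. FASTKD4 had 20.2, 19.4 and 20.3 FPKM in the UDCA libraries, against 23.3, 22.5 and 22.5 FPKM in the control libraries (1.14-fold lower, log2 change -0.18 ± 0.030, adjusted p = 9.29e-04). FASTKD5, needed to process transcripts that no tRNA flanks, had 14.4, 15 and 15.6 FPKM with UDCA, against 14.7, 13.6 and 15.4 FPKM in control, and was not called, with overlapping groups.

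Among the elongation factors, the abundant TUFM was lower. TUFM (chr16:28842411-28846408), which delivers aminoacyl-tRNA to the ribosome, had 68.8, 67 and 70.4 FPKM with UDCA, against 84, 84.4 and 84.6 FPKM in control (1.23-fold lower, log2 change -0.29 ± 0.023, adjusted p = 1.96e-05). TSFM, its nucleotide exchange factor, had 4.49, 4.19 and 3.77 FPKM in the UDCA libraries, against 5.81, 5.86 and 5.85 FPKM in the control libraries (1.41-fold lower, log2 change -0.41 ± 0.059, adjusted p = 4.74e-04). TSFM shares 28.5% of its exon bases with other genes, among them AVIL, which averaged 0.690 FPKM with UDCA and 1.44 FPKM in control. Their part in its fall was not tested. GFM1, the translocase, had 7.08, 6.92 and 6.52 FPKM with UDCA, against 7.13, 7.57 and 7.83 FPKM in control, and was not called (log2 change -0.12 ± 0.048, adjusted p = 0.0556), though it too was called lower under those 3 scalings, by voom on recovered reads and without control replicate 1. GFM2, which acts in ribosome recycling, had 10.1, 9.87 and 9.21 FPKM with UDCA, against 6.96, 7.16 and 7.28 FPKM in control (1.36-fold higher, log2 change 0.40 ± 0.043, adjusted p = 1.07e-04), and shares 18.8% of its exon bases with other genes. The ratio of GFM2 to GFM1 was 1.43, 1.43 and 1.41 with UDCA, against 0.977, 0.945 and 0.930 in control (exact permutation p = 0.1, 0.12 adjusted). Every UDCA library was higher in GFM2 and lower in GFM1 than any control library, which fixed this p beforehand.

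Genes of the same pathway outside the 105 were counted from lists of their roles. Of 5 further mitoribosomal proteins, 4 were lower (80%) and only DAP3 was higher (20%), beside 35.7% lower and 45.1% higher over all tested genes. DAP3, a GTP-binding protein of the small subunit, had 57.8, 57.1 and 59.2 FPKM in the UDCA libraries, against 33.1, 31.9 and 31.4 FPKM in the control libraries (1.81-fold higher, log2 change 0.83 ± 0.027, adjusted p = 2.04e-07). CHCHD1 had 11, 9.53 and 11.1 FPKM with UDCA, against 13.7, 14.2 and 12.3 FPKM in control (1.27-fold lower), and AURKAIP1 had 36.9, 38.1 and 37.8 FPKM with UDCA, against 46.8, 47.1 and 45.1 FPKM in control (1.23-fold lower). On the log2 scale GADD45GIP1 fell by 0.25 and PTCD3 fell by 0.16.

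Initiation factors rose. MTIF2, which places the initiator tRNA, had 37.7, 35.7 and 38 FPKM in the UDCA libraries, against 16.4, 14.7 and 16.3 FPKM in the control libraries (2.35-fold higher, log2 change 1.18 ± 0.046, adjusted p = 5.29e-07), and MTIF3, which keeps the subunits apart, had 18.8, 20.2 and 18.9 FPKM with UDCA, against 7.80, 8.30 and 8.09 FPKM in control (2.40-fold higher, log2 change 1.16 ± 0.040, adjusted p = 2.65e-07). Factors of release and recycling were mixed: MTRFR and MTRF1L fell, and MTRF1 was not called. MRRF was called higher (mean 3.59 FPKM with UDCA, against 2.47 FPKM in control). MTRFR, which rescues stalled ribosomes, had 3.34, 3.46 and 3.40 FPKM with UDCA, against 9.84, 9.66 and 9.10 FPKM in control (2.80-fold lower, log2 change -1.26 ± 0.043, adjusted p = 2.48e-07), and MTRF1L, a release factor, had 2.40, 2.81 and 2.66 FPKM in the UDCA libraries, against 4.37, 4.34 and 4.93 FPKM in the control libraries (1.73-fold lower, log2 change -0.61 ± 0.068, adjusted p = 1.25e-04). MTRF1L shares 34.8% of its exon bases with another gene. Of the 9 genes of initiation, release and membrane insertion, 5 were higher (55.6%) and 3 lower (33.3%). The shares over all tested genes were 45.1% and 35.7%. Among the 3, OXA1L loses the call in 7 of 13 alternatives. The median log2 change of the 9 was 0.40.

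Of 13 genes of mitochondrial tRNA modification, 11 were called higher and 2 lower, where 80.8% of all tested genes were called and 45.1% were higher; the median log2 change of the 13 was 0.34. Among the 11, ALKBH1, TRMT5 and GTPBP3 lose the call under median-ratio scaling, and ALKBH1 and TRMT5 under other alternatives too. MTO1, which modifies the wobble uridine, had 4.76, 4.94 and 4.82 FPKM with UDCA, against 1.64, 1.66 and 1.70 FPKM in control (2.90-fold higher, log2 change 1.13 ± 0.047, adjusted p = 6.85e-07). PUS1, a pseudouridine synthase, had 7.12, 6.71 and 7.20 FPKM with UDCA, against 2.74, 2.86 and 2.53 FPKM in control (2.59-fold higher). YRDC, which also serves cytosolic tRNAs, had 28.5, 29.7 and 29.5 FPKM in the UDCA libraries, against 13, 12.6 and 13.5 FPKM in the control libraries (2.25-fold higher), and NSUN3, the methyltransferase of the mitochondrial methionine tRNA, had 5.36, 5.40 and 4.79 FPKM with UDCA, against 2.23, 2.06 and 1.76 FPKM in control (2.57-fold higher). The 2 that were lower were OSGEPL1 and TRMU; TRMU, which thiolates the same wobble uridine that MTO1 modifies, had 8.44, 8.5 and 8.30 FPKM with UDCA, against 12.8, 13.4 and 12.9 FPKM in control (1.55-fold lower, log2 change -0.58 ± 0.032, adjusted p = 2.95e-06).

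Of 22 tested genes of ribosome assembly and rRNA modification, 9 were higher (40.9%), 5 lower (22.7%) and 8 not called. The shares over all tested genes were 45.1% higher and 35.7% lower. Among the 9, ERAL1 and METTL15 lose the call under median-ratio scaling and other alternatives. MRM2, a methyltransferase of the large rRNA, had 14.1, 13.8 and 15.4 FPKM in the UDCA libraries, against 28.4, 29 and 30.6 FPKM in the control libraries (2.03-fold lower, log2 change -0.97 ± 0.048, adjusted p = 1.58e-06). TRMT61B, which methylates adenosine in mitochondrial RNA, had 12.1, 11.3 and 13.2 FPKM with UDCA, against 6.99, 5.74 and 5.37 FPKM in control (2.02-fold higher, log2 change 0.91 ± 0.094, adjusted p = 8.31e-05). Of 9 tested genes of RNA processing and granules, 4 were higher (44.4%) and 3 lower (33.3%), near the shares over all tested genes. Among the 4, MTPAP loses the call under median-ratio scaling and without UDCA replicate 2. The 3 that fell were the tRNA 3′ endonuclease and both tested proteins of RNase P: ELAC2 had 8.65, 8.61 and 8.66 FPKM with UDCA, against 12.4, 11.9 and 11.6 FPKM in control (1.38-fold lower), HSD17B10 had 58.3, 59.4 and 65.1 FPKM in the UDCA libraries, against 82.5, 86.3 and 79.6 FPKM in the control libraries (1.36-fold lower), and TRMT10C had 12.4, 12.3 and 12.9 FPKM with UDCA, against 18.3, 16.8 and 16 FPKM in control (1.36-fold lower). REXO2, which degrades short RNAs, had 4.28, 4.42 and 4.38 FPKM with UDCA, against 2.70, 2.59 and 2.21 FPKM in control (1.74-fold higher).

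Of 16 genes of mitochondrial DNA maintenance and nucleotide supply, 6 were higher (37.5%), 5 lower (31.2%) and 5 not called. The shares over all tested genes were 45.1% higher and 35.7% lower. Among the 6, RNASEH1 loses the call in 10 of 13 alternatives. Among the 5 that were lower, DNA2 was under 1 FPKM in every UDCA library and entered the test through its control libraries alone. MGME1, the exonuclease that trims mitochondrial DNA ends, had 9.26, 8.56 and 8.95 FPKM in the UDCA libraries, against 29.5, 31.2 and 29 FPKM in the control libraries (3.35-fold lower, log2 change -1.64 ± 0.040, adjusted p = 5.55e-08). FEN1, which also serves nuclear replication, had 6.34, 7.13 and 7.46 FPKM with UDCA, against 54.7, 55.4 and 57 FPKM in control (7.99-fold lower, log2 change -2.83 ± 0.054, adjusted p = 1.80e-08), and DNA2, likewise shared with the nucleus, had 0.540, 0.362 and 0.448 FPKM with UDCA, against 4.62, 4.56 and 4.75 FPKM in control (10.3-fold lower). SLC25A33, a pyrimidine nucleotide carrier, had 7.72, 8.98 and 6.66 FPKM in the UDCA libraries, against 3.04, 3.27 and 2.41 FPKM in the control libraries (2.68-fold higher, log2 change 1.17 ± 0.120, adjusted p = 8.17e-05).

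Of 7 tested nuclear regulators, 5 were higher (71.4%) and 1 lower (14.3%), beside 45.1% and 35.7% over all tested genes. The median log2 change of the 7 was 0.91. MYC, a general growth regulator, had 32.1, 33 and 34.9 FPKM with UDCA, against 5.53, 5.11 and 4.58 FPKM in control (6.57-fold higher, log2 change 2.50 ± 0.062, adjusted p = 5.85e-08). ESRRA, a nuclear receptor, had 28.6, 30.7 and 30.5 FPKM with UDCA, against 11.5, 12.5 and 11.6 FPKM in control (2.52-fold higher), and PPARGC1B, a coactivator, had 1.72, 1.78 and 1.74 FPKM in the UDCA libraries, against 0.345, 0.347 and 0.359 FPKM in the control libraries (4.99-fold higher). NRF1 itself had 5.99, 6.77 and 7.03 FPKM with UDCA, against 6.32, 7.17 and 7.08 FPKM in control, and was not called, and GABPA had 7.76, 7.59 and 6.65 FPKM with UDCA, against 9.25, 8.91 and 8.79 FPKM in control (1.23-fold lower). PPARGC1B was under 1 FPKM in every control library, so it entered the test and this count through its UDCA libraries alone. PPARGC1A, at 0.109, 0.124 and 0.114 FPKM in the UDCA libraries, against 0.133, 0.144 and 0.140 FPKM in the control libraries, was too low to test.

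**Figure D5:**
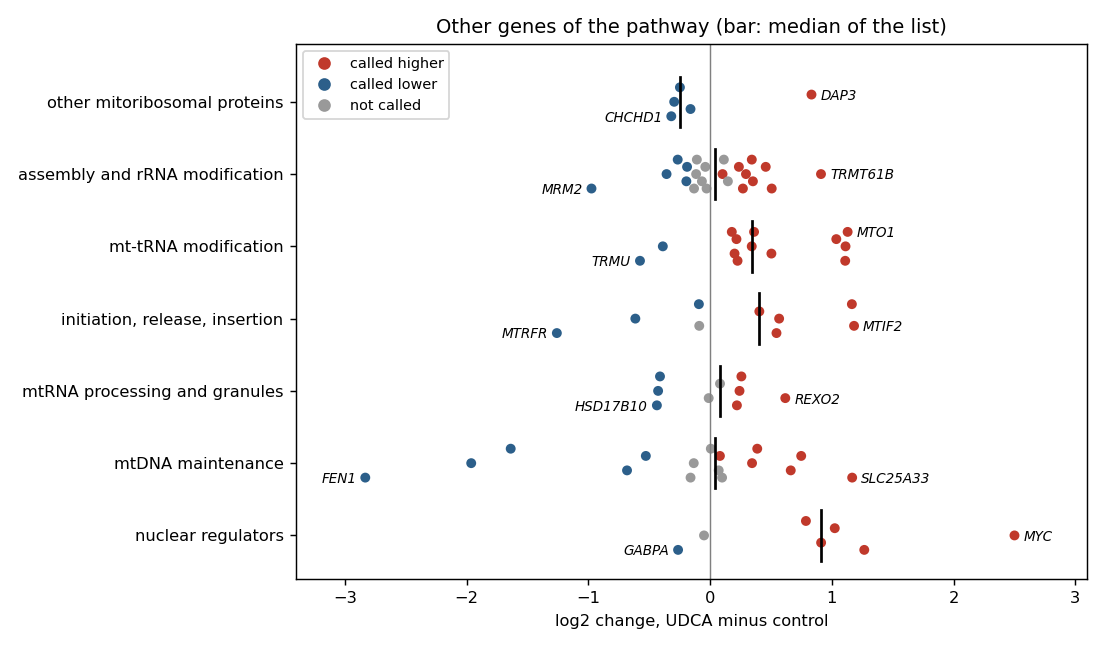
Log2 change (UDCA minus control) of the other tested genes of the pathway by list; each point is a gene, coloured by its call, and the bar is the list's median. The median lies at 0.91 for nuclear regulators, at 0.40 for initiation, release and insertion, and at 0.34 for tRNA modification, while the other lists lie between -0.25 and 0.08.

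The transcripts that this machinery makes and reads stood far from the machinery itself. All 15 mitochondrially encoded genes listed were lower with UDCA; their median log2 change was -6.52. The 13 protein genes summed to 160.8 ± 1.10 FPKM with UDCA and 25849 ± 248 FPKM in control (SD, n = 3 each), 161-fold lower, and the 2 rRNA genes to 75.3 ± 2.16 FPKM with UDCA and 2944 ± 15.5 FPKM in control, 39.1-fold lower. MT-ATP8 was listed at 0 in each UDCA library, against 19.2, 2.25 and 1.91 FPKM in the control libraries. It rests on only 81 reads over the control libraries, most of its level there coming from control replicate 1. MT-ATP8 thus entered the test through its control libraries alone. Mitochondrial rRNA carries only short tails, so its level in poly(A)-selected libraries is not its cellular amount. Set against the summed mitoribosomal proteins, the 13 protein genes gave a ratio of 0.109 with UDCA and 19.3 in control. The summed FPKM of all 105 genes was 1841 ± 18.4 with UDCA and 1689.9 ± 23.7 in control. As another translation apparatus in the same cells, 80 tested cytosolic ribosomal proteins had 53 higher (66.2%), 15 lower (18.8%) and a median log2 change of 0.24. Over all tested genes 45.1% were higher and 35.7% lower, with a median of 0.10.

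Of the machinery, 2 pairs of genes lie within 1000 bases of each other, both on opposite strands. MRPL46 and MRPS11 start 34 bases apart on chromosome 15. MRPL46 had 1.56, 1.35 and 1.22 FPKM with UDCA, against 0.710, 0.578 and 0.526 FPKM in control (2.27-fold higher, log2 change 0.56 ± 0.089, adjusted p = 8.03e-04), while MRPS11 had 4.84, 4.54 and 4.53 FPKM with UDCA, against 5.79, 6.25 and 5.60 FPKM in control (1.27-fold lower, log2 change -0.29 ± 0.051, adjusted p = 0.00158). Every control library of MRPL46 was under 1 FPKM, so it entered the test through its UDCA libraries alone. MRPL43 and TWNK start 148 bases apart on chromosome 10. MRPL43 had 9.98, 8.39 and 9.83 FPKM in the UDCA libraries, against 8.81, 9.26 and 9.54 FPKM in the control libraries, and was not called. TWNK was called higher, and 36.9% of MRPL43 exon bases are shared with TWNK and SEMA4G. Of the 105 genes, 48 share no exon base with another gene, 73 share under 10% and 10 share over 30%. GENCODE 29 also lists 70 processed pseudogenes of MRP genes, with which reads could be shared.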

How the data were processed

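Groups follow the labels. The deposited table holds FPKM for every gene in every library, a unit inferred from the values: per the labels' protocols the libraries were TruSeq libraries of poly(A) RNA, and per the submitters' processing notes HISAT2, Bowtie2 2.0.6 and GRCh38 were used. How reads were counted, and whether by strand, is not given in the sources used here. Each value times the gene's merged exon length in GENCODE 29 came out as whole reads within 0.01 for 100% of values; 3 reads in a gene of 1 kb equal 0.169 to 0.188 FPKM, counting error only. Symbols come from GENCODE 29, whose positions equal those of the table for 33873 of 33890 genes and for all 105 members.

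Genes that reached 1 FPKM in 3 or more of the 6 libraries were tested with limma-trend (limma 3.58.1, R 4.3.3) on log2(FPKM + 1), a scale that understates changes of low genes, 2-sided, with group as the only term and Benjamini-Hochberg adjustment over all tested genes at 0.05. The fit was checked on simulated data, where smaller changes were recovered less often than larger ones. Few genes were changed in the simulation and all had the same dispersion. It therefore cannot speak to data in which most genes are called, as here. Folds are ratios of mean FPKM, and errors are SD over 3 libraries or the SE of a log2 change. Tables and plots used Python 3.11.15, pandas 2.3.3 and matplotlib 3.10.9.

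The genes and lists were chosen with earlier results of these data known. Every one of the 27 factors is given; of the MRP genes, the text gives the 3 largest rises and falls per class with at least 2 FPKM, the 3 closest to no change, the S18 paralogs and those not tested. MRPL51, MRPS36, MRPL46, MRPS11, MRPL43 and MRPS26 were named after their values were seen. Of each pathway list, called genes with the largest changes are given. The alternatives were quantile normalization, median-ratio scaling, totals without mitochondrially encoded genes, no filter, a pseudocount of 0.1, voom on recovered reads, the replicate number as a block, and leaving out each library.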

Additional observations from a re-analysis of the deposited data

How the results depend on the processing

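Of the 80 called genes of the machinery, 68 kept their call and direction in all 13 alternatives (38 higher, 30 lower). The 12 others lost it in at least 1: MRPL23, MRPL24, MRPL14, MRPS18A, MRPL48, MRPL50, MRPS12, MRPS16, MRPS34, TFB2M, MTERF3 and SLIRP. Genes of the machinery called numbered 42 higher and 41 lower with quantile normalization, 38 and 45 with median-ratio scaling, 41 and 41 with totals without mitochondrially encoded genes, 41 and 33 of 105 with no filter, and 41 to 42 and 33 to 35 on leaving out each library.

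The sign of the median log2 change of the members depends on scaling: it was -0.0098 with quantile normalization, -0.0651 with median-ratio scaling and -0.0204 with totals without mitochondrially encoded genes, and 0.0024 to 0.0364 on leaving out each library. Among called genes of the machinery and the pathway lists the direction reversed in 2 cases, the log2 change of MRPS34 with quantile normalization (0.0114) and the log2 change of RNASEH1 with median-ratio scaling (-0.0053). The ratio of the summed large subunit was 0.9866 with median-ratio scaling, 1.0183 with totals without mitochondrially encoded genes and 1.0451 to 1.0633 on leaving out each library. That of the small subunit was 1.1140, 1.1499 and 1.1745 to 1.1964. The cause was not tested beyond the construction of these scalings. Over all genes tested, 11218 to 11381 were called on leaving out each library.

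Replicate numbers did not pair the libraries: deviations of same-numbered libraries correlated at 0.0143, -0.0012 and 0.0073. The replicate block gave 11503 genes called and 44 higher and 37 lower in the machinery. The 3 genes not tested fell under the cut-off of 1 FPKM in every library.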
